A study of Mus musculus with 12 samples.

Results

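The mitochondrial genome is a small circular chromosome that codes for core subunits of the respiratory chain and for the RNAs of the mitochondrial ribosome. The genes described here are all 37 genes of the mitochondrial chromosome in the count table, which lists 43629 genes in all. They comprise 13 protein genes, 2 ribosomal RNA (rRNA) genes and 22 transfer RNA (tRNA) genes, and all 37 were found by their mt- symbol and chromosome. Of these, 28 are annotated on the plus strand and are called heavy-strand genes here: 12 protein genes, both rRNA genes and 14 tRNA genes. The other 9 are annotated on the minus strand and are called light-strand genes: mt-Nd6 and 8 tRNA genes.

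RNA was sequenced from B cells of mouse spleen in 12 libraries, 4 per group. Zfp36l1-deficient marginal zone (MZ) B cells carried the genotype Zfp36l1fl/flERT2cre/+, control MZ B cells ERT2cre/ERT2cre, and follicular (FO) B cells Zfp36l1fl/fl cre-, and the strain label Zfp36l1tm1.1Tnr is shared by all of them. The MZ groups thus differ both in the floxed allele and in their ERT2cre dosage. ERT2cre is a recombinase that acts after tamoxifen. The labels give no age, sex or tamoxifen schedule, and separate animals are not stated, so each p-value reflects only how these libraries vary, which may be technical. MZ cells sit at the edge of the splenic follicle and answer blood-borne antigen fast, FO cells recirculate, and Zfp36l1 is an RNA-binding protein that promotes decay of mRNAs carrying AU-rich sequence. The design text gives a SMARTer kit, 5 ng of input RNA and paired reads of 100 bp for MZ cells. For FO cells it gives the stranded TruSeq kit for mRNA and unpaired reads of 100 bp, although SMARTer kits are named for every sample in the extraction protocol. Between control MZ and FO libraries, kit, read layout, genotype and cell type therefore cannot be told apart.

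Both strands of the mitochondrial genome are transcribed into long precursors. The precursors are cut mainly where tRNAs lie between the other genes. Most of the released mRNAs, and the rRNAs, are given short poly(A) tails by a mitochondrial enzyme. The proteins are subunits of complexes I, III, IV and V, whose remaining subunits come from nuclear genes, and activated B cells draw on this respiration during growth and antibody secretion.

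Library totals ran from 28938453 to 40664963 counts, and 0 library columns were identical. Zfp36l1 mRNA was at 29.9 ± 6.52 CPM (counts scaled to the library total; mean ± SD, n = 4) in deficient MZ, 117 ± 6.66 in control MZ and 370 ± 18.7 in FO libraries. Cr2, which encodes CD21, was at 3451 ± 226, 4116 ± 283 and 1368 ± 180 CPM in the same order, and Fcer2a, which encodes CD23, at 112 ± 35.5, 129 ± 44.6 and 1288 ± 112. The gate in the labels is positive for CD93, but Cd93 was at 0.715 ± 0.645 CPM in deficient and 0.677 ± 0.273 in control MZ libraries, against 19.6 ± 2.45 in FO libraries. Among the 8 B cell markers, edgeR called 0 between deficient and control MZ cells, and DESeq2 called 0. At an unadjusted p under 0.05 in edgeR stood 3 of these markers, against 2689 of all 13987 genes tested. Summed T cell markers lay between 37.6 and 49.0 CPM in all libraries; Thy1 had no count in deficient MZ, and Cd3e, Cd4 and Thy1 had none in control MZ. Control replicate 6 stood apart from the other control libraries in its mitochondrial counts, and deficient replicate 7 was the lowest deficient library for most protein genes, as the values below show.

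Mitochondrial genes took 2.29 ± 0.218% of all counts in deficient MZ, 2.72 ± 0.252% in control MZ and 4.52 ± 0.138% in FO libraries (mean ± SD, n = 4 each). The deficient replicates 1, 2, 7 and 8 held 2.497, 2.41, 2.002 and 2.24%. The control replicates 3, 4, 5 and 6 held 2.83, 2.85, 2.87 and 2.35%, so that the groups of MZ libraries overlapped only through control replicate 6. FO replicates 3, 4, 7 and 8 held 4.59, 4.48, 4.35 and 4.66%, above every MZ library. In bulk RNA, fewer mitochondria, less RNA per mitochondrion and more nuclear RNA per cell give the same share and cannot be told apart, nor can fewer cells of a type and less RNA per cell.

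The make-up of the mitochondrial counts also differed by group. The rRNA genes took 11.1 ± 0.448% of mitochondrial counts in deficient MZ, 13.5 ± 0.447% in control MZ and 2.15 ± 0.574% in FO libraries. The deficient libraries (10.5 to 11.6%) lay below the control MZ libraries (13.1 to 14.2%) without overlap. The light-strand genes took 0.804 ± 0.0594% in deficient MZ, 0.717 ± 0.0242% in control MZ and 0.0613 ± 0.00145% in FO libraries, and mt-Nd6 alone held 96.7 to 99.4% of the light-strand counts in every library. Deficient libraries (0.749 to 0.880%) lay above control MZ libraries (0.681 to 0.731%), and FO libraries (0.0599 to 0.0631%) far below both. With the rRNA genes left out of the total, the MZ groups overlapped (0.836 to 0.990% in deficient and 0.786 to 0.847% in control MZ libraries). The tRNA genes took 0.00639 ± 0.000873%, 0.00656 ± 0.000498% and 0.00657 ± 0.00202%. Wilson 95% intervals reached at most 0.00675 percentage points on either side for the mitochondrial share, 0.0779 for the rRNA share and 0.0220 for the light-strand share, and cover counting error only. These shares are descriptions over the whole group of genes and carry no test.

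**Figure D1:**
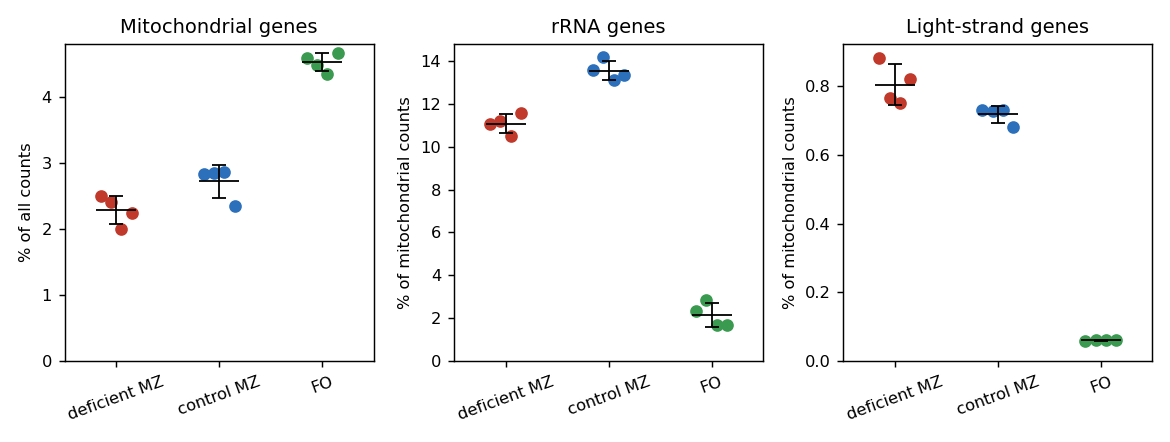
Mitochondrial genes as a percentage of all counts (left), and rRNA genes (middle) and light-strand genes (right) as a percentage of mitochondrial counts, in the 12 libraries. Points are libraries, and bars are the mean and SD of 4; FO libraries have the highest mitochondrial share (4.52%) and the lowest rRNA (2.15%) and light-strand shares (0.0613%).

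Levels of different genes were compared as CPM per kilobase of gene. In control MZ cells the order was mt-Co3 (6391), mt-Atp6 (4525), mt-Co1 (3344), mt-Co2 (2774), mt-Cytb (2147), mt-Rnr2 (1977) and mt-Nd1 (1188), followed by mt-Nd4 (685), mt-Nd5 (662), mt-Nd2 (446), mt-Nd6 (344), mt-Rnr1 (277), mt-Nd3 (238) and mt-Atp8 (130 CPM per kilobase). The libraries of the neighbours from mt-Co1 to mt-Rnr2 overlapped at each step, as did those of mt-Nd4 and mt-Nd5 and of each step from mt-Nd2 to mt-Nd3. In deficient MZ cells the order was the same except that mt-Co2 (2689) stood above mt-Co1 (2491 CPM per kilobase), with overlapping libraries. In FO cells mt-Co1 (10651) led, ahead of mt-Atp6 (9175), mt-Co3 (8105) and mt-Co2 (7469), none of which overlapped its neighbour. At the bottom of the FO order stood mt-Rnr2 (479), mt-Rnr1 (384) and mt-Nd6 (60.6 CPM per kilobase), while mt-Atp8 (2161) ranked seventh, next to mt-Nd2 (2155).

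By complex, the subunits of complex IV (mt-Co1, mt-Co2 and mt-Co3) took 53.2 ± 2.07% of protein gene counts in deficient MZ, 55.8 ± 0.338% in control MZ and 54.6 ± 1.53% in FO libraries. The complex I genes (the mt-Nd genes) took 19.9 ± 0.794%, 18.5 ± 0.416% and 23.8 ± 0.803%. The complex III gene mt-Cytb took 11.6 ± 1.02%, 11.4 ± 0.363% and 8.58 ± 0.433%, and the complex V genes mt-Atp6 and mt-Atp8 took 15.3 ± 0.623%, 14.4 ± 0.360% and 13.1 ± 0.401%.

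**Figure D2:**
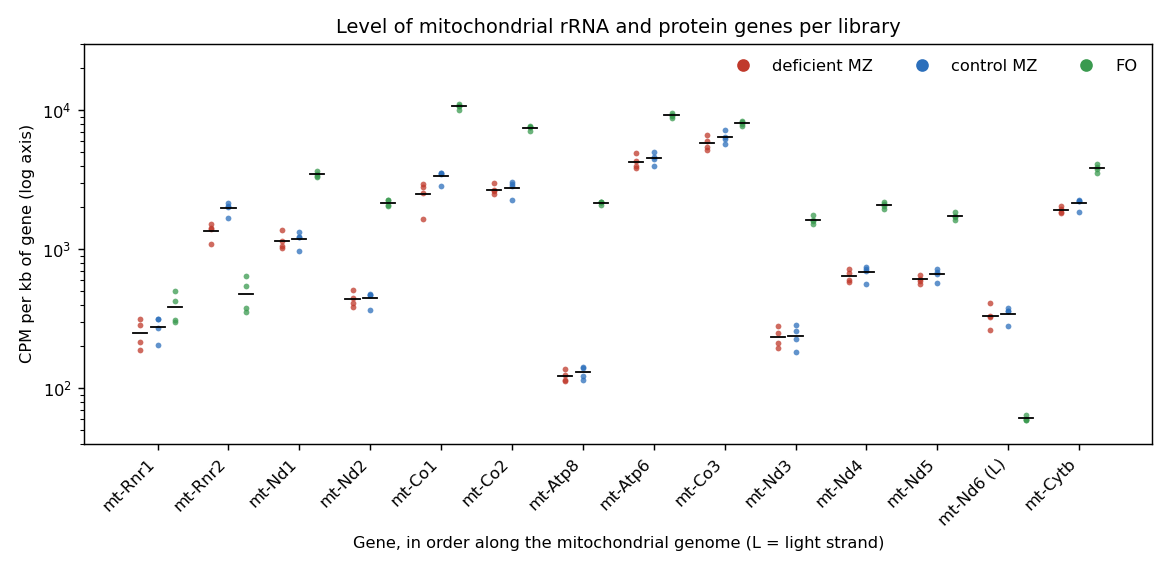
Level of the 2 rRNA genes and of 12 protein genes (mt-Nd4l, with at most 2 counts per library, is left out) in CPM per kilobase of gene on a log axis, in order along the chromosome. Points are libraries (4 per group) and bars are group means; the MZ groups lie close together for most genes, FO libraries lie above them for most heavy-strand genes, and FO lies below for mt-Rnr2 and the light-strand gene mt-Nd6.

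The first comparison asked which mitochondrial RNAs differ between Zfp36l1-deficient and control MZ cells, which share kit and read layout. Here 1 gene passed the test: mt-Rnr2, the large rRNA of the mitochondrial ribosome, was lower in deficient cells. Deficient replicates 1, 2, 7 and 8 held 2393, 2265, 1725 and 2219 CPM of mt-Rnr2, and control replicates 3, 4, 5 and 6 held 3188, 3389, 3262 and 2669. Every deficient library lay below every control library, with means of 2150 ± 293 and 3127 ± 316 CPM (SD, n = 4 each). The log2 fold change was -0.55 (SE 0.10; adjusted p in edgeR = 0.00861). Of the 37 genes, 16 passed the filter on low counts (13 heavy-strand, 3 light-strand). Among the heavy-strand genes 1 was called lower and 0 higher, and among the light-strand genes edgeR called 0 (0 at an unadjusted p under 0.05, and 0 in DESeq2), against 3.7% of all 13987 genes tested. Called lower were 1.4% of all genes tested, and libraries did not overlap for 11.9% of them in either direction and for 5.58% with deficient cells lower; among the 16 mitochondrial genes only mt-Rnr2 did not overlap. mt-Rnr2 was called in each fit that left out 1 library (log2 -0.62 to -0.46), but not in a fit over all 12 libraries (log2 -0.54; adjusted p in edgeR = 0.0592). For mt-Rnr2, -0.48 and an adjusted p of 3.01e-05 stand in the authors' deposited table.

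The small rRNA, mt-Rnr1, did not pass the test. It was at 303, 272, 206 and 179 CPM in deficient replicates 1, 2, 7 and 8 and at 301, 260, 302 and 195 in control replicates 3, 4, 5 and 6, and the groups overlapped over most of their range (log2 -0.15, SE 0.16; adjusted p in edgeR = 0.648). The 2 rRNAs are needed in equal number in a ribosome and lie next to each other on the chromosome, separated by the tRNA gene mt-Tv. The count of mt-Rnr2 over that of mt-Rnr1 was 9.25 ± 2.10 in deficient and 12.04 ± 1.57 in control MZ libraries, with overlapping ranges (7.91 to 12.4 and 10.6 to 13.7).

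Among the protein genes, mt-Co1, the catalytic subunit of complex IV, had the largest difference. It was at 4535, 4368, 2538 and 3954 CPM in deficient replicates 1, 2, 7 and 8, and at 5372, 5452, 5458 and 4384 in control replicates 3, 4, 5 and 6. Deficient replicate 1 exceeded control replicate 6, and deficient replicate 7 was the lowest of all 8 libraries. The log2 fold change of -0.44 (SE 0.14) did not pass the test (adjusted p in edgeR = 0.108). DESeq2 called mt-Co1 (log2 -0.43, adjusted p = 0.0401), as did edgeR without the filter on low counts (log2 -0.44, adjusted p = 0.0198). Without deficient replicate 7 the log2 fold change of mt-Co1 was -0.28. The authors' deposited table gives -0.34 with an adjusted p of 0.0424.

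The other subunits of complex IV gave smaller values. mt-Co2 had a log2 fold change of -0.05 (SE 0.09), and mt-Co3 of -0.15 (SE 0.09), neither of which passed the test (adjusted p in edgeR = 0.796 and 0.383). The count of mt-Co1 over that of mt-Co2 was 2.20, 2.40, 1.495 and 2.22 in deficient replicates 1, 2, 7 and 8 and 2.67, 2.79, 2.63 and 2.84 in control replicates 3, 4, 5 and 6, without overlap. This ratio was chosen after the values were seen and has no test.

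None of the remaining protein genes passed the test. In complex III, mt-Cytb, cytochrome b, had a log2 fold change of -0.17 (SE 0.08; adjusted p in edgeR = 0.267). In complex V, mt-Atp6 and mt-Atp8, membrane subunits of the ATP synthase, had -0.10 (SE 0.09) and -0.09 (SE 0.10). In complex I, the values were -0.05 for mt-Nd1, -0.04 for mt-Nd2, -0.03 for mt-Nd3, -0.09 for mt-Nd4, -0.14 (SE 0.08) for mt-Nd5 and -0.06 for the light-strand gene mt-Nd6. The light-strand tRNA genes mt-Ts1 and mt-Tp had -0.52 (SE 0.36) and -0.03 (SE 0.32). All 16 tested mitochondrial genes had a log2 fold change below 0, with a median of -0.10, whereas 50.8% of all 13987 tested genes did, with a median of -0.0037. The 16 values come from the same 8 libraries. Leaving out 1 library turned the sign of mt-Nd1, mt-Nd2, mt-Nd3, mt-Nd6 or mt-Tp, each of which lay within 0.06 of 0 on the log2 scale.

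Nuclear genes that act on mitochondrial RNA were counted in the same fit, where 3.7% of all tested genes were called, a share that gives few calls or none in lists of this size. At an unadjusted p under 0.05 in edgeR stood 2689 of all 13987 genes tested, beside which the unadjusted counts of the lists are to be read. Of 17 tested genes for mitochondrial transcription and replication, edgeR called 0 (median log2 -0.06; 4 at an unadjusted p under 0.05; DESeq2 called 2 lower), and the member with the smallest p was Mterf3, a repressor of mitochondrial transcription (log2 -0.35, SE 0.10; adjusted p in edgeR = 0.0593). Of 30 tested genes for mitochondrial RNA processing and decay, edgeR called 0 (median -0.03; 2 at an unadjusted p under 0.05; DESeq2 called 0). Of 36 genes that charge or modify mitochondrial tRNAs, it called 0 (median -0.04; 4 unadjusted; DESeq2 called 1 lower). Of 76 proteins of the mitochondrial ribosome, the partners of mt-Rnr1 and mt-Rnr2, it called 0 (median 0.09; 13 unadjusted; DESeq2 called 3 higher). Among 11 tested regulators of mitochondrial biogenesis, 1 rose, the growth factor-induced transcription factor Myc (log2 0.70, SE 0.11; adjusted p in edgeR = 0.00341), and 0 fell.

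The nuclear partners of the mitochondrial subunits lay on the other side of 0 on median. For complex I the median log2 fold change of 37 tested genes was 0.18, with 1 called higher, Ndufs5 (0.47, SE 0.12; adjusted p in edgeR = 0.0420). For complex III it was 0.22 over 9 genes, with Uqcrq called higher (0.64, SE 0.15; adjusted p in edgeR = 0.0279). For complex IV it was 0.22 over 12 genes, with Cox7a2 called higher (0.56, SE 0.11; adjusted p in edgeR = 0.0154). For complex V it was 0.18 over 17 genes, of which edgeR called 0 (5 at an unadjusted p under 0.05; DESeq2 called 1 higher). Complex II, which has no mitochondrially encoded subunit, had a median of -0.02 over 4 genes, of which edgeR called 0 (1 unadjusted; DESeq2 called 0). Neither edgeR nor DESeq2 called any of these nuclear subunits lower. In edgeR, an unadjusted p under 0.05 was reached by 14 genes of complex I, 4 of complex III and 8 of complex IV. Over all 13987 genes tested 2689 reached it, and 3.7% were called. The difference between nuclear and mitochondrial subunits was not tested.

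Markers of other cells moved with the groups for some lists. Summed erythroid markers reached 8.07 to 26.5 CPM in deficient and 2.03 to 11.8 CPM in control MZ libraries. Of 8 tested erythroid genes edgeR called 1 higher, with 6 at an unadjusted p under 0.05 and a median log2 fold change of 1.64. Of 3 tested T cell markers, Cd8a and Tcf7 were called higher. Of 12 macrophage and monocyte markers, Adgre1 was called higher (summed 45.1 to 57.5 and 42.7 to 53.0 CPM). Of 6 dendritic cell and 7 platelet markers edgeR called 0 (1 and 0 at an unadjusted p under 0.05; DESeq2 called 0), and of 5 plasma cell markers Irf4 was called lower. Their part in the mitochondrial values was not tested.

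**Figure D3:**
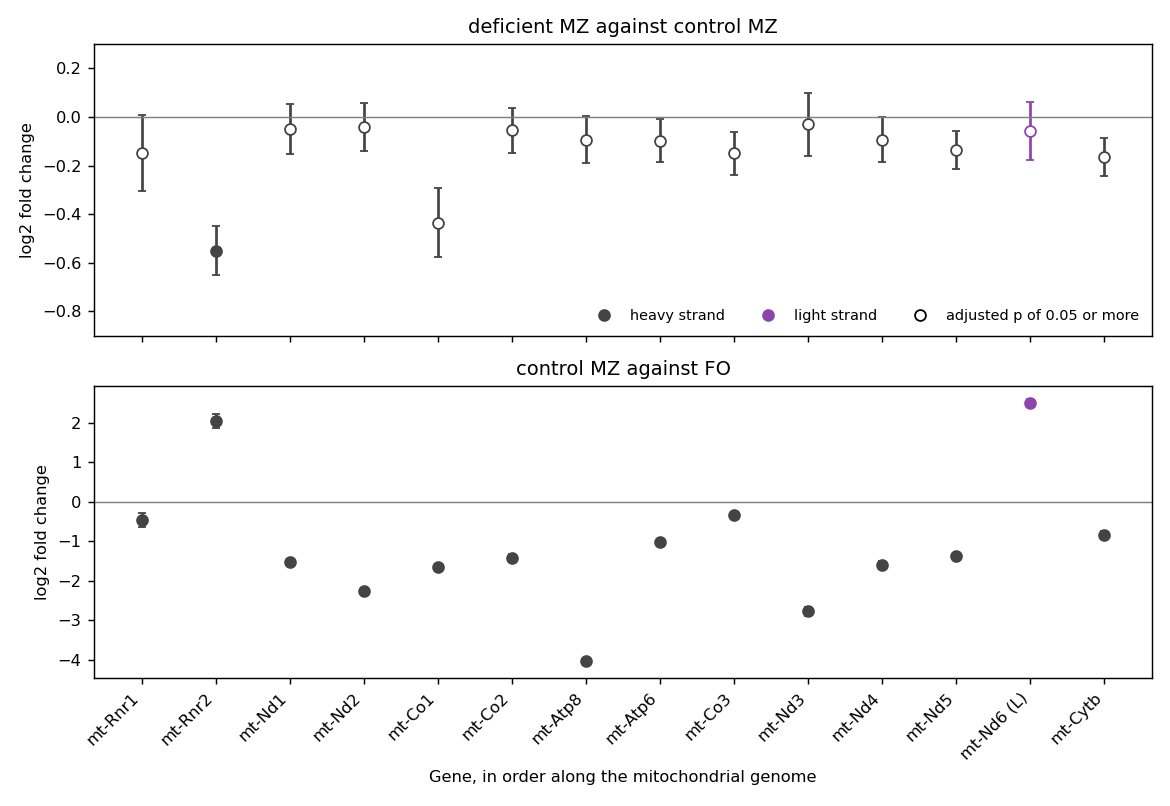
Log2 fold change of the rRNA and protein genes that passed the filter, with SE, in order along the chromosome, for deficient against control MZ (top) and control MZ against FO (bottom; the scales differ). Filled points have an edgeR adjusted p under 0.05, and the light-strand gene is purple; mt-Rnr2 (-0.55) is the filled point at the top, and mt-Rnr2 (2.05) and mt-Nd6 (2.51) lie above 0 at the bottom.

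The second comparison set control MZ against FO cells, whose libraries were also made and read in different ways. Here 18 of the 37 genes passed the filter, and all 18 were called. Of 15 tested heavy-strand genes 14 were lower and 1 higher in control MZ cells, and the 3 tested light-strand genes were all higher. In this comparison 81.5% of all 13843 tested genes were called, 42.6% higher and 38.8% lower, and libraries did not overlap for 76.9% (37.2% with control MZ lower), so a call alone says little about the mitochondrial genes. The 4 tRNA genes among the 18 passed the filter only through the group where they are high. The median over the 11 tested heavy-strand protein genes was -1.53, against 0.05 over all genes tested.

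All 11 tested heavy-strand protein genes were lower in control MZ cells, but by very unequal amounts. The smallest difference was in mt-Co3, at 5013, 4839, 5699 and 4493 CPM in control replicates 3, 4, 5 and 6 and at 6508, 6537, 6087 and 6285 in FO replicates 3, 4, 7 and 8 (log2 -0.33, SE 0.08; adjusted p in edgeR = 0.00158). The largest was in mt-Atp8, at 29.2, 25.2, 28.6 and 23.5 CPM in the control MZ and 444, 446, 424 and 450 CPM in the FO libraries (log2 -4.04, SE 0.07; adjusted p in edgeR = 6.37e-13). The FO mean of mt-Atp8 was 16.6-fold higher. The groups did not overlap for any of these 11 genes.

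mt-Atp8 shares its end with mt-Atp6, which lies on the same mRNA. The last 60 bases of mt-Atp8 (GRCm38 chrM:7910-7969, plus strand) are shown because 43 of its 204 bases, in capitals, belong to both genes:
mt-Atp8 end: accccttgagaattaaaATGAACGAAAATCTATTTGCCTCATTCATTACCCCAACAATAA
mt-Atp6 was at 3128, 3061, 3428 and 2709 CPM in control MZ and at 6301, 5974, 6181 and 6537 CPM in FO libraries (log2 -1.01, SE 0.08; adjusted p in edgeR = 9.67e-08). The count of mt-Atp6 over that of mt-Atp8 was 115 ± 1.89 in deficient MZ, 116 ± 6.45 in control MZ and 14.2 ± 0.541 in FO libraries. Per base of gene it was 34.6 ± 0.566, 34.8 ± 1.93 and 4.25 ± 0.162. The deficient and control MZ libraries thus agreed in a ratio from which every FO library departed. How reads in the shared bases were counted is not stated in the labels.

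The complex I genes on the heavy strand spanned log2 -2.77 to -1.38. mt-Nd3, after mt-Atp8 the shortest of the tested protein genes at 348 bases, was at 89.3, 78.8, 99.3 and 63.2 CPM in control MZ and 615, 558, 525 and 565 CPM in FO libraries (log2 -2.77, SE 0.12; adjusted p in edgeR = 4.65e-10). mt-Nd2 had log2 -2.26 (SE 0.09), mt-Nd4 -1.59 (SE 0.09), mt-Nd1 -1.53 (SE 0.09) and mt-Nd5 -1.38 (SE 0.08). In complex IV, mt-Co1 had -1.66 (SE 0.09) and mt-Co2 -1.42 (SE 0.09), and in complex III mt-Cytb had -0.83 (SE 0.08). The count of mt-Co3 over that of mt-Co1, genes of the same complex, was 0.972 ± 0.0745 in control MZ and 0.386 ± 0.00910 in FO libraries.

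The 2 rRNAs went opposite ways. mt-Rnr2 was higher in control MZ cells, where it was at 2669 to 3389 CPM, than in FO replicates 3, 4, 7 and 8, where it was at 854, 1024, 562 and 594 CPM (log2 2.05, SE 0.17; adjusted p in edgeR = 2.98e-07). mt-Rnr1 was at 404, 482, 287 and 294 CPM in the same FO libraries and at 195 to 302 in control MZ, with overlapping groups (log2 -0.46, SE 0.17; adjusted p in edgeR = 0.0254). The call of mt-Rnr1 was lost without control replicate 4 (adjusted p = 0.0538), control replicate 6 (0.0737), FO replicate 3 (0.0533) or FO replicate 4 (0.0682), and with DESeq2 (0.0580). In FO libraries, replicates 3 and 4 held more of both rRNAs than replicates 7 and 8. The count of mt-Rnr2 over that of mt-Rnr1 was 2.05 ± 0.0791 there, against 12.04 ± 1.57 in control MZ. Per base of gene the ratio was 1.24 ± 0.0477 in FO and 7.27 ± 0.946 in control MZ libraries. What the kit contributes to these values cannot be told apart from the cell type.

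The light-strand protein gene mt-Nd6, a membrane subunit of complex I, ran against the heavy-strand protein genes. It was at 186, 186, 197 and 145 CPM in control replicates 3, 4, 5 and 6 and at 30.9, 31.2, 30.4 and 33.3 CPM in FO replicates 3, 4, 7 and 8 (log2 2.51, SE 0.09; adjusted p in edgeR = 9.21e-11). The control MZ mean of mt-Nd6 was 5.67-fold higher. Its neighbour on the other strand, mt-Nd5, another complex I subunit, was lower in control MZ cells. Their 3′ ends run into each other over 14 bases, in capitals, and are shown because reads there belong to both genes unless strand is counted (GRCm38 chrM:13536-13565, plus strand, and chrM:13552-13581, minus strand):
mt-Nd5 end: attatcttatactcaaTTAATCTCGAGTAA
mt-Nd6 end: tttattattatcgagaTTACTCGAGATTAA
The count of mt-Nd5 over that of mt-Nd6 was 6.52 ± 0.956 in deficient MZ, 6.79 ± 0.321 in control MZ and 100.4 ± 3.67 in FO libraries. Per base of gene this was 1.86 ± 0.272, 1.93 ± 0.0914 and 28.6 ± 1.04. Only the FO kit is named as stranded in the design text, and whether the counting used strand is not stated in the labels. Without strand, light-strand RNA and antisense RNA of the heavy-strand precursor over mt-Nd6, or the reverse over the heavy-strand genes, cannot be told apart, and the same holds for every light-strand gene.

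Some mitochondrial mRNAs end in an incomplete stop codon, which the poly(A) tail completes. In the annotation, 10 protein genes ended in a complete stop codon and 3 in an incomplete last codon. The last 24 bases of those 3 and, for contrast, of mt-Co2 are given with the last codon in capitals (GRCm38 chrM plus strand, ending at 9390, 11544, 15288 and 7696):
mt-Co3 end: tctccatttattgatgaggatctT
mt-Nd4 end: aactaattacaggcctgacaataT
mt-Cytb end: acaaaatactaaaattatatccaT
mt-Co2 end: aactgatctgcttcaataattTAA
The 3 genes with an incomplete codon had log2 fold changes of -0.33 (mt-Co3), -1.59 (mt-Nd4) and -0.83 (mt-Cytb) between control MZ and FO cells. mt-Co3 and mt-Cytb had the smallest differences of the 11 heavy-strand protein genes, and mt-Nd4 lay among the rest.

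The tRNA genes gave few counts. They are 59 to 75 bases long, shorter than the 100 bp reads, so a full-length read over any of them also covers its neighbours. Of the 22 tRNA genes, 9, all on the heavy strand, had no count in any of the 12 libraries, where 3 counts correspond to 0.0738 to 0.104 CPM. Over the 4 libraries of a group, the 14 heavy-strand tRNA genes summed to 4 counts in deficient MZ, 2 in control MZ and 373 in FO. The 8 light-strand tRNA genes summed to 192, 258 and 78. The 2 strands thus differed in which libraries gave most tRNA counts, with exceptions among the light-strand genes and for heavy-strand mt-Tl1.

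On the heavy strand, mt-Tw, the tryptophan tRNA, had 0 counts in all 8 MZ libraries and 69, 74, 35 and 57 in FO replicates 3, 4, 7 and 8. Set against 3 counts over the control MZ group, FO was at least 75.1-fold higher. mt-Tt, the threonine tRNA, had 0 counts in MZ libraries and 48 in FO (at least 15.3-fold higher), and mt-Tm, the methionine tRNA, had 0 counts in control MZ and 25 in FO (at least 7.98-fold). mt-Ti, the isoleucine tRNA, had 1 count in control MZ and 65 in FO, a ratio of 62.3 with an exact 95% counting interval of 10.8 to 2497. In mean CPM the mt-Ti ratio was 74.4. mt-Tl1, a leucine tRNA, had 3 counts in deficient MZ, 1 in control MZ and 0 in FO. Of these, mt-Tw and mt-Ti passed the filter, but only through the FO libraries where they are high, so their calls had their direction fixed and the counts are given as a description.

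On the light strand, mt-Ts1, a serine tRNA, had 16, 15, 11 and 15 counts in deficient MZ, 23, 30, 23 and 15 in control MZ and 0, 0, 1 and 2 in FO libraries. Its ratio of control MZ to FO was 31.7 (10.5 to 156). mt-Tn, for asparagine, had 29 and 1 counts in control MZ and FO (30.3, 5.02 to 1236), mt-Te, for glutamate, 22 and 4 (5.74, 1.95 to 22.9), and mt-Tc, for cysteine, 13 and 0 (at least 4.52-fold higher). mt-Tp, for proline, had 31, 20, 22 and 28 counts in control MZ and 15, 4, 4 and 2 in FO libraries (4.22, 2.70 to 6.82). Both mt-Ts1 and mt-Tp passed the filter only through the MZ libraries where they are high, so their calls also had their direction fixed. The call of mt-Tp was lost with the replicate number as a block (log2 1.23, adjusted p in edgeR = 0.111). In that fit only replicates 3 and 4, whose numbers occur in both groups, bear on the difference. mt-Ta, for alanine, ran the other way with 0 counts in control MZ and 31 in FO (at least 9.90-fold higher in FO), as did mt-Tq, for glutamine, with 1 and 11 (10.5, 1.53 to 454). mt-Ty, for tyrosine, had 1 and 3 counts.

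The 4 tRNA genes that passed the filter in this comparison are printed because they hold most of the tRNA counts of the study; each passed through the group where it is high, and the light-strand genes mt-Ta and mt-Tq run with the heavy-strand ones. Capitals mark bases shared with a neighbouring gene: mt-Nd2 for mt-Tw, mt-Nd1 and mt-Tq for mt-Ti, and mt-Co1, on the other strand, for mt-Ts1 (GRCm38 chrM:4950-5016 and chrM:3706-3774, plus strand; chrM:6870-6938 and chrM:15356-15422, minus strand):
mt-Tw: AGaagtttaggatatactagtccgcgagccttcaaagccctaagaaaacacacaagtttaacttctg
mt-Ti: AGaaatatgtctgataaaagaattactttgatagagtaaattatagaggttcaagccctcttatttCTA
mt-Ts1: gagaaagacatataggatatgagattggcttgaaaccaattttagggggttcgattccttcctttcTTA
mt-Tp: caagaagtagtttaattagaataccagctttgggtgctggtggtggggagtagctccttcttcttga
mt-Tp has no shared base. It lies against the next heavy-strand gene, mt-Tt, which ends at 15355.

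**Figure D4:**
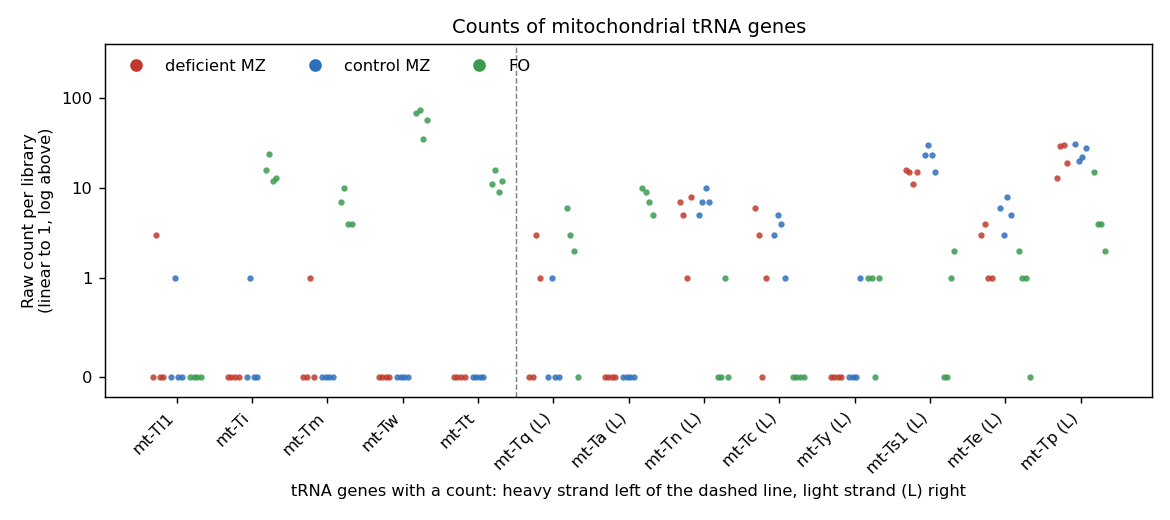
Raw counts of the 13 tRNA genes with any count, per library (points, 4 per group), on an axis that is linear up to 1 and logarithmic above; heavy-strand genes are left of the dashed line. FO libraries hold the counts of mt-Ti, mt-Tm, mt-Tw, mt-Tt and mt-Ta (35 to 74 per library for mt-Tw), and MZ libraries hold most of those of mt-Tn, mt-Tc, mt-Ts1 and mt-Te.

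mt-Nd4l, a complex I subunit encoded just before mt-Nd4, stood apart from every other protein gene. It had 0, 0, 1 and 0 counts in deficient replicates 1, 2, 7 and 8, 0, 2, 1 and 0 in control replicates 3, 4, 5 and 6, and 1, 0, 1 and 0 in FO replicates 3, 4, 7 and 8. It shares its last 7 bases, in capitals, with mt-Nd4, which was at 779 to 1026 CPM in control MZ libraries (GRCm38 chrM:10144-10173, plus strand):
mt-Nd4l end: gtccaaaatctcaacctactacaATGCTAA
A nuclear gene on chromosome 1, Gm10222, matches 294 of the 297 bases of mt-Nd4l at 100% identity, and it had 0 to 3 counts per library. How reads that match both places were counted is not stated in the labels, so the level of mt-Nd4l is uncertain.

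Such nuclear copies exist for other members as well. A copy needed at least 100 aligned bases at 85% identity or more, which the tRNA genes (59 to 75 bases) could not meet. Of the 13 protein and 2 rRNA genes, 12 had an annotated nuclear copy of this kind, 17 copies in all. At 99% identity or more, 7 members had a copy: mt-Co1 (483 of its 1545 bases), mt-Co2, mt-Atp6, mt-Co3, mt-Nd3, mt-Nd4 (876 of 1378 bases) and mt-Nd4l. These 7 copies lie together on chromosome 1 (GRCm38 chr1:24611535-24616197, minus strand). Counts of these 7 members are uncertain to that extent. mt-Co3, whose copy is identical over 783 bases, was among the highest members per kilobase in all groups. mt-Nd4l, also with an identical copy, had at most 2 counts per library. Loss of reads to the copies was not tested. No copy exceeded 650 counts in a library. The highest was Gm29216, a copy of part of mt-Co1, with 288 to 541 counts in deficient MZ, 314 to 650 in control MZ and 0 to 1 in FO libraries. Gm13340, another copy of mt-Co1, had 34 to 68, 66 to 156 and 96 to 153 counts, Gm13341, a copy of mt-Co2, had 6 to 16, 8 to 15 and 67 to 87, and Gm10925, a copy of mt-Atp6, had 1 to 3, 2 to 10 and 0.

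Between control MZ and FO cells, nuclear genes that serve mitochondrial RNA were called in both directions, as were 42.6% (higher) and 38.8% (lower) of all genes tested, and nothing particular to these lists is read from their counts. Of 17 tested genes for mitochondrial transcription and replication, 9 were higher and 3 lower (median log2 0.14), among them Tefm, the mitochondrial elongation factor (1.02), Ssbp1, which coats displaced mitochondrial DNA (0.75), Polg, the DNA polymerase (-0.60), and Primpol, a primase-polymerase (-0.50). Of 30 genes for RNA processing and decay, 19 were higher and 6 lower (median 0.30). Lrpprc, which stabilises mitochondrial mRNAs (0.58), Trmt10c, a subunit of the enzyme that cuts tRNA 5′ ends (0.87), and Rexo2, which degrades short RNA (0.93), were higher, and Tbrg4, an RNA-binding protein of the FASTK family (-1.40), was lower. Of 36 genes that charge or modify tRNAs 22 were higher and 7 lower (median 0.29), with Nars2 (1.26) and Yars2 (1.21), which charge the asparagine and tyrosine tRNAs, higher, and Mars2, which charges the methionine tRNA (-2.33), and Trnt1, which adds CCA ends (-0.82), lower. Of 11 biogenesis regulators 3 were higher and 3 lower (median 0.02), with Myc at 2.47, Ppargc1b at 1.04, Gabpa at -1.01 and Yy1 at -2.27. All of these named genes were called (edgeR).

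The nuclear partners of the mitochondrial products were called in both directions, whereas the 11 heavy-strand protein genes were all lower; the difference between nuclear and mitochondrial genes was not tested. Of 76 mitochondrial ribosomal proteins 50 were higher and 12 lower in control MZ cells (median log2 0.40). In complex I, 15 of 37 tested nuclear genes were higher and 8 lower (median 0.11), in complex III 5 of 9 higher and 2 lower (median 0.29), in complex IV 5 of 12 higher and 5 lower (median -0.05), and in complex V 9 of 17 higher and 8 lower (median 0.14). In complex II, 4 of 4 were higher (median 0.61). The median of all genes tested was 0.05. Platelet markers were higher for 7 of 7 genes in control MZ (summed 13.2 to 21.4 against 3.46 to 4.27 CPM in FO libraries), and macrophage and monocyte markers for 10 of 12, with 1 lower (42.7 to 53.0 against 21.97 to 48.0 CPM). Of the 8 B cell markers 4 were higher and 3 lower, of 5 dendritic cell markers 2 were higher, of 4 erythroid markers 1 was higher, of 3 T cell markers 1 was higher and 1 lower, and of 5 plasma cell markers 2 were higher and 3 lower. Of the 5 sort markers 3 were higher and 2 lower in this comparison, and 1, Cd1d1, was higher in deficient than in control MZ cells. The part of other cells in the mitochondrial values was not tested.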

How the data were processed

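The deposited table holds raw counts, whole numbers for each Ensembl gene in each library. The submitters' processing notes name build GRCm38 and, as tools, DESeq2 1.10.1, HTSeq, TopHat2 2.0.12 and Trim Galore. Which annotation release, counting mode and strand setting applied is not given in the sources. The authors' deposited tables also give log2 fold changes and adjusted p-values, which are quoted as such. Their deposited normalised values were not used.

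Of the 43629 gene IDs, 42462 matched GENCODE M21 (GRCm38), which gave symbols, strand, coordinates and transcript sequences; 19338 genes had no count. In R 4.3.3, edgeR 4.0.16 (quasi-likelihood test, TMM scaling, default low-count filter by group) was run on the 8 libraries of each comparison. P-values were adjusted by Benjamini-Hochberg over all tested genes, and an adjusted p under 0.05 is a call. CPM are counts scaled by TMM factors over all 12 libraries. The tRNA ratios and the floors (3 counts) use library totals without TMM factors. Intervals and floors cover counting error only. Nuclear copies were found by aligning the mitochondrial transcripts to all GENCODE M21 transcripts. The procedure was also run on simulated counts with known changes in a small part of the genes. That setting differs from control MZ against FO, where 81.5% of tested genes were called.

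The members and gene lists were chosen with earlier results of these data known. All 37 members are accounted for; of each other list up to 4 genes with the smallest p, and of nuclear copies the 4 with the highest mean count, are named, and Gm10222 and markers with no count were added after their values were seen. Alternatives were DESeq2 1.42.0, RLE factors, no filter, mitochondrial genes left out of library totals, 1 fit over 12 libraries, each library left out, a replicate block, rRNA genes left out of shares and copies added to them.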

Additional observations from a re-analysis of the deposited data

Results flagged for a closer look

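A library was singled out where its gap to the nearest other library of its group, divided by the group's range, exceeded Dixon's 95% critical value. Among 63 groups of 4 values tested, 8 met this. The critical value allows about 1 in 20 for independent, continuous values. Members share libraries, so the 8 are not independent. A gene with a count in only 1 library of a group, such as mt-Ti in control MZ, meets the rule by construction. Control MZ replicate 6 accounted for 5 of them and was the lowest library each time: mt-Nd2 at 378.7 CPM (nearest control 485), mt-Co1 at 4384 (nearest 5372), mt-Cytb at 2107 (nearest 2556), the mitochondrial share of all counts at 2.35% (nearest 2.83%) and the light-strand share of mitochondrial counts at 0.681% (nearest 0.728%). Without control replicate 6, mt-Rnr2 remained called lower in deficient MZ cells, and the log2 fold change of mt-Co1 was -0.51 with an edgeR adjusted p of 0.0953.

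In FO libraries, replicate 7 was lowest for mt-Co2 at 4818 CPM (nearest 5179), and replicate 3 was highest for mt-Tp at 0.471 CPM (nearest 0.127). Control MZ replicate 4 held the only count of mt-Ti among MZ libraries, 0.0268 CPM against 0 in the others.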

How the results depend on the processing

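Over 208 refits of single mitochondrial genes between deficient and control MZ cells, 194 kept their direction and their side of the threshold, 2 gained a call (mt-Co1) and 1 lost it (mt-Rnr2). In 11 the sign turned, each time on leaving out 1 library, over ranges of -0.143 to 0.00708 for mt-Nd1, -0.128 to 0.0135 for mt-Nd2, -0.140 to 0.0657 for mt-Nd3, -0.171 to 0.0418 for mt-Nd6 and -0.173 to 0.147 for mt-Tp. The number of mitochondrial genes called lower was 1, but 2 with DESeq2, 2 without the filter and 0 in the 12-library fit, and 1 on leaving out any library. Of 252 refits between control MZ and FO cells, 246 kept direction and side, and 6 lost the call (5 of mt-Rnr1, 1 of mt-Tp). Without the filter, 7 mitochondrial genes were called higher in control MZ, against 4, since more light-strand tRNA genes entered the test.

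Over all genes, calls in deficient MZ cells (321 higher, 196 lower) were 557 and 476 with DESeq2. Calls lower were 307 without the filter and 343 in the 12-library fit. Leaving out 1 library gave 171 to 293 higher and 82 to 190 lower, fewest without control replicate 4. Higher calls fell by over 1.5 times also when control replicate 3 (196) or 6 (208) or deficient replicate 8 (211) was left out. Lower calls did so for control replicate 3 (110), 5 (128) or 6 (103) and for deficient replicate 8 (88). The cause was not tested. Leaving out the rRNA genes moved the mitochondrial share to 2.04% in deficient and 2.36% in control MZ, and the light-strand share to 0.904% and 0.830%.

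Replicate numbers 3 and 4 occur in both control MZ and FO. Deviations of the same number correlated at -0.0489 and -0.0883 over 13874 genes, and genotypes differ, so the numbers do not pair the animals. With the replicate block, 5115 genes were called higher and 4836 lower, and 17 of the 18 mitochondrial genes were called. At the depth of these libraries 3 counts correspond to 0.0738 to 0.104 CPM, and what sets the low counts of the tRNA genes was not tested.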
